A study of Rattus norvegicus with 32 samples.

Results

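Stretch, denervation and regeneration genes were examined in the red part of the tibialis anterior, an ankle-lifting hindlimb muscle, of 32 male Zucker rats. The genes were taken from a list of 10 symbols, and each was read from the array feature annotated to that symbol alone with the highest mean. Of the 10 symbols, 7 had such a feature (Ankrd1, Chrna1, Chrng, Myog, Gadd45a, Myod1 and Myh3), out of 14557 genes with a feature of 1 symbol. The only feature listed for Myh8 is shared with Myh1 and Myh2, and Runx1 and Ncam1 had no feature in the annotation used here, so these 3 were not analysed. All 7 lay above the limit that left out the dimmest 25% of genes, and 10917 genes were tested.

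The obese ALA group was obese Zucker rats on the AIN-93G diet with 10% flaxseed oil, which is rich in alpha-linolenic acid. The obese LA group was obese Zucker rats on AIN-93G with 10% safflower oil, which is rich in linoleic acid. Both oil groups were pair-fed to the calories of the obese controls, so the oil and the feeding schedule cannot be told apart. Obese controls and lean controls ate AIN-93G without restriction. Each group held 8 male rats, which arrived at 5 weeks of age, were fed for 12 weeks and were 18 weeks old when the muscle was frozen. Obesity in this strain comes from a mutated leptin receptor present in every tissue, so muscle cannot be told apart from the rest of the body as the site of a difference. Each rat gave 1 array, and all values are log2 intensities.

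Ankrd1 encodes a muscle ankyrin repeat protein of the sarcomere that rises with stretch and injury. Nerve activity normally keeps acetylcholine receptor genes silent outside the endplate. When a muscle loses its nerve supply, the myogenic factor myogenin (Myog) rises and receptor genes such as Chrna1 and Chrng are expressed along the whole fibre. Chrna1 encodes the alpha subunit of the receptor and Chrng the gamma subunit of its fetal form. Gadd45a, a stress-response gene, is strongly induced in denervated muscle. Myod1 encodes the myogenic factor MyoD, which acts in activated satellite cells and is also present in adult fibres, more in fast than in slow ones in rodents. Myh3 encodes embryonic myosin heavy chain, a marker of newly formed fibres.

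MyoD and myogenin bind the E-box, CANNTG, and this motif was searched on both strands in the 250 bases before the annotated start of the genes with a promoter entry in RefSeq (5 of the 7 genes, build GRCr8). The 4 windows that hold it are shown, with the E-boxes in capitals. The windows lie at chr3:78877354-78877603 on the minus strand for Chrna1, chr9:95325734-95325983 on the plus strand for Chrng, chr13:48297226-48297475 on the plus strand for Myog and chr10:52268935-52269184 on the plus strand for Myh3.
Chrna1: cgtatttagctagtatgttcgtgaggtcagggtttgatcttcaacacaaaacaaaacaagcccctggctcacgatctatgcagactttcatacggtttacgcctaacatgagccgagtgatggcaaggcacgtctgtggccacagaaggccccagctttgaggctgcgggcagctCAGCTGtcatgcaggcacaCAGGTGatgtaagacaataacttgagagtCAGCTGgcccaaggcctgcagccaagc
Chrng: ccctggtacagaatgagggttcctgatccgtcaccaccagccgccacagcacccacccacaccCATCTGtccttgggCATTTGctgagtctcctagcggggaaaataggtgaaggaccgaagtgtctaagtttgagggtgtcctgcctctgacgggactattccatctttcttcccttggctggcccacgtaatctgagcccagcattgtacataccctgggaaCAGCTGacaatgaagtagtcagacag
Myog: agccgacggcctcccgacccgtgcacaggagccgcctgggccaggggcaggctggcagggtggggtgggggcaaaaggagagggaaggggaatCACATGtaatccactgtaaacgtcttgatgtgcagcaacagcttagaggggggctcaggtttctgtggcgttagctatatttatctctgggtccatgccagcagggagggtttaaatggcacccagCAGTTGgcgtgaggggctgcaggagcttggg
Myh3: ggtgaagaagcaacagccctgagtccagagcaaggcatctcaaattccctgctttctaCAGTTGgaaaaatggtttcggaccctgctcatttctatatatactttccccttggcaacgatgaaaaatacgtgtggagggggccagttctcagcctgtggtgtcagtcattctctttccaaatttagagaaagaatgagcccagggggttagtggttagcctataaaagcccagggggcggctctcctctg
The Chrna1 and Chrng windows each held 3 E-boxes, that of Myog 2 and that of Myh3 1, while that of Gadd45a held 0. Of 33469 promoter windows of the same length, 65.5% held at least 1 E-box and 11.5% held 3 or more. The more specific form CAGCTG, which is a subset of CANNTG, occurred 2 times before Chrna1 and 1 time before Chrng, and in 12% of all windows. The form CAGGTG, searched with its complement CACCTG, occurred once, before Chrna1 (15.9% of all windows). The pattern searched for MEF2 fixed the outer bases and allowed any base in the core. This pattern (3.41% of windows) and CATTCC, the TEAD motif (12.1%), were in none of the 5 windows. Forms of the MEF2 motif with other outer bases were not searched, so a lack of matches does not mean that these windows lack them. The Myog window holds ctatatttat, which differs from the pattern searched in its last base only. A match of letters is a description of the sequence and not a binding site.

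Pairs of arrays correlated at r = 0.966 to 0.992 over all features. Genes of mature muscle such as Acta1 and Ckm were bright in every rat, with a mean over 7 markers of 12.04 to 12.36. Several arrays stood apart. Among the 10917 genes, obese control 7 had 193, obese control 4 had 158 and obese control 5 had 115 lying over 1 log2 unit above the median of their group, against 46 in lean control 2 and 7 to 14 in the other obese controls. Obese control 5 carried liver transcripts, with a mean over 6 hepatocyte genes of 8.52, against 3.63 to 4.42 in every other rat. LA rats 7 and 8 had 172 and 115 such genes, and carried tendon transcripts. Their mean over 10 tendon genes was 7.83 and 6.24, against at most 5.77 (ALA rat 7) in any other rat.

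**Figure D1:**
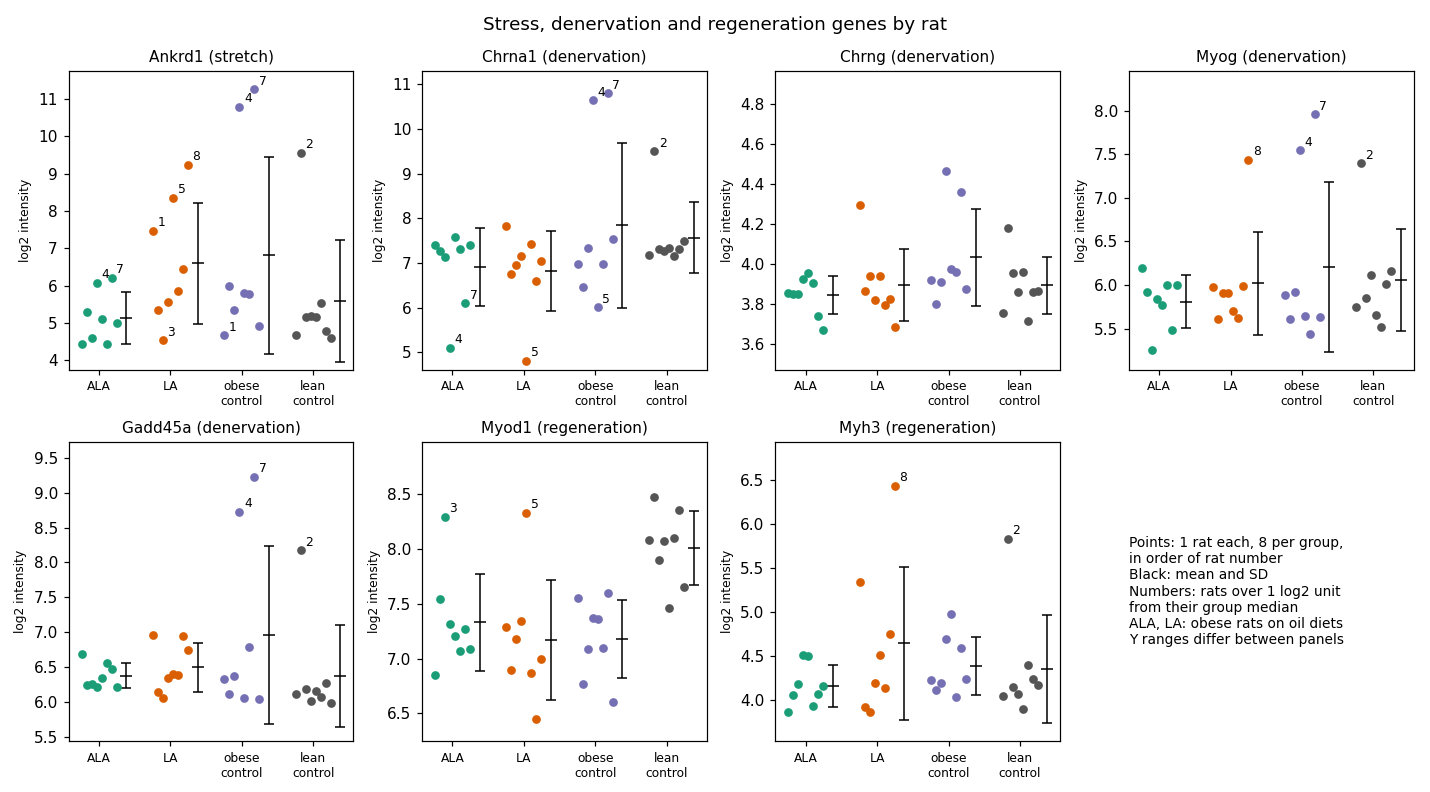
Log2 intensity of the 7 genes in each of 32 rats, with 1 point per rat, 8 rats per group, and the mean and SD in black; rats over 1 log2 unit from the median of their group carry their number. In Ankrd1, Chrna1, Myog and Gadd45a the high points of the control groups are obese controls 4 and 7 and lean control 2.

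The stretch gene Ankrd1 (feature 17641724) had the widest spread of the 7 genes. It was at 4.43 to 6.21 in obese ALA rats (median 5.06), 4.54 to 9.24 in obese LA rats (median 6.15), 4.67 to 11.26 in obese controls (median 5.79) and 4.59 to 9.56 in lean controls (median 5.16). Obese controls 7 and 4 lay at 11.26 and 10.79 while the other 6 obese controls lay at 4.67 to 5.98. Lean control 2 lay at 9.56 while the other 7 lean controls did not pass 5.53. Against the median of the group, Ankrd1 was 44.1-fold higher in obese control 7, 31.8-fold higher in obese control 4 and 21.1-fold higher in lean control 2. On the LA diet, Ankrd1 was high in rats 8 (9.24), 5 (8.35) and 1 (7.48), and no ALA rat passed 6.21.

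Chrna1 (feature 17773262), of the denervation genes, separated the same 3 control rats and no LA rat. It was at 5.09 to 7.57 in obese ALA rats (median 7.29), 4.80 to 7.83 in obese LA rats (median 7.00), 6.00 to 10.80 in obese controls (median 7.16) and 7.15 to 9.50 in lean controls (median 7.30). Obese controls 7 (10.80) and 4 (10.64) were 12.5-fold and 11.2-fold above the group median, and lean control 2 (9.50) was 4.58-fold above its own. The other 7 lean controls lay within 7.15 to 7.49. Chrna1 was also low in single rats, at 4.80 in LA rat 5, 5.09 in ALA rat 4, 6.00 in obese control 5 and 6.09 in ALA rat 7. LA rat 5 thus ranked 5 of 32 in Ankrd1 and was the lowest of all 32 rats in Chrna1.

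Gadd45a (feature 17791733) followed Chrna1. It was at 6.21 to 6.68 in obese ALA rats (median 6.30), 6.05 to 6.95 in obese LA rats (median 6.39), 6.03 to 9.23 in obese controls (median 6.35) and 5.98 to 8.17 in lean controls (median 6.13). Obese control 7 was at 9.23, obese control 4 at 8.72 and lean control 2 at 8.17, and none of the other 29 rats passed 6.95.

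Myog (feature 17680270) was high in the same 3 rats and in LA rat 8. It was at 5.25 to 6.20 in obese ALA rats (median 5.88), 5.61 to 7.44 in obese LA rats (median 5.91), 5.44 to 7.96 in obese controls (median 5.76) and 5.51 to 7.39 in lean controls (median 5.93). The high rats were obese control 7 (7.96), obese control 4 (7.55), LA rat 8 (7.44) and lean control 2 (7.39), and all others were at or below 6.20.

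Chrng (feature 17861184) was dim and moved little, and 39.1% of genes were dimmer. It was at 3.67 to 3.95 in obese ALA rats (median 3.85), 3.68 to 4.29 in obese LA rats (median 3.84), 3.80 to 4.47 in obese controls (median 3.94) and 3.71 to 4.18 in lean controls (median 3.86). Its highest values were in obese controls 4 (4.47) and 7 (4.36), LA rat 1 (4.29) and lean control 2 (4.18). These rats stood above their group medians by 0.31 to 0.53 log2 units.

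**Figure D2:**
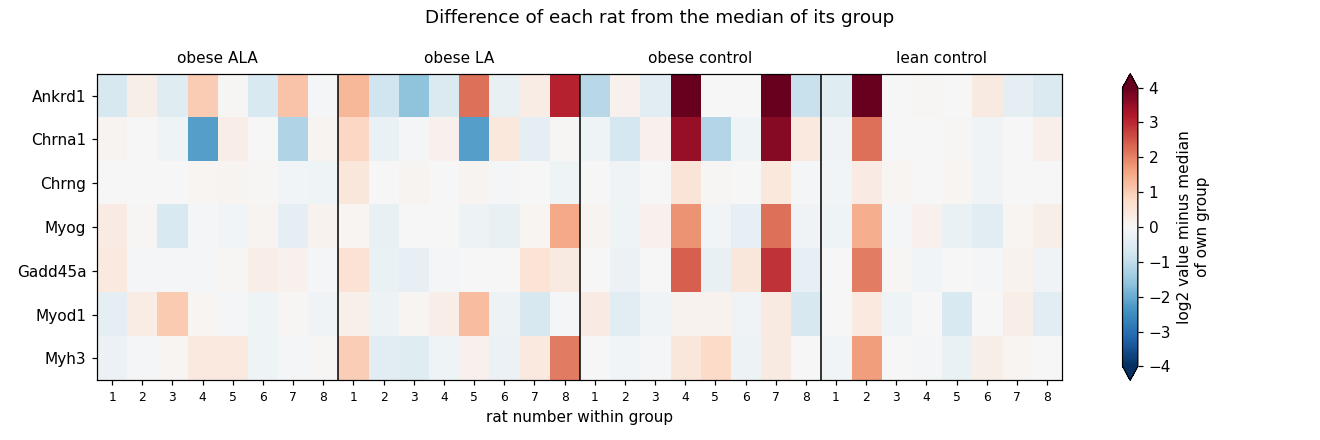
Log2 value of each of the 7 genes minus the median of the rat's own group, for 32 rats in 4 groups, with red for above and blue for below and colours saturating at 4 log2 units. Obese controls 4 and 7 and lean control 2 are red in Ankrd1, Chrna1, Myog and Gadd45a, while LA rat 8 is red in Ankrd1, Myog and Myh3 and pale in Chrna1.

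In Myh3 and Myod1, obese controls 4 and 7 did not stand apart as they did in the denervation genes. Lean control 2 was the highest of its group in both. The mean of a longer list of regeneration genes, given further on, was highest in the same 3 control rats. Myh3 (feature 17646882) was at 3.87 to 4.52 in obese ALA rats (median 4.11), 3.86 to 6.44 in obese LA rats (median 4.35), 4.03 to 4.98 in obese controls (median 4.23) and 3.89 to 5.83 in lean controls (median 4.16). Its highest values were in LA rat 8 (6.44), lean control 2 (5.83), LA rat 1 (5.34) and obese control 5 (4.98). Obese controls 4 (4.69) and 7 (4.59), the highest of all rats in Ankrd1, Chrna1 and Gadd45a, were only 1.38-fold and 1.28-fold above their group median in Myh3.

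Myod1 (feature 17616644) did not single out those rats. It was at 6.85 to 8.29 in obese ALA rats (median 7.24), 6.45 to 8.33 in obese LA rats (median 7.08), 6.60 to 7.60 in obese controls (median 7.23) and 7.47 to 8.47 in lean controls (median 8.08). Obese control 7 was the highest of its group at 7.60 and lean control 2 the highest of its group at 8.47, but each lay within 0.40 log2 units of the group median. Outside the lean controls, only ALA rat 3 (8.29) and LA rat 5 (8.33) passed 7.60.

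**Figure D3:**
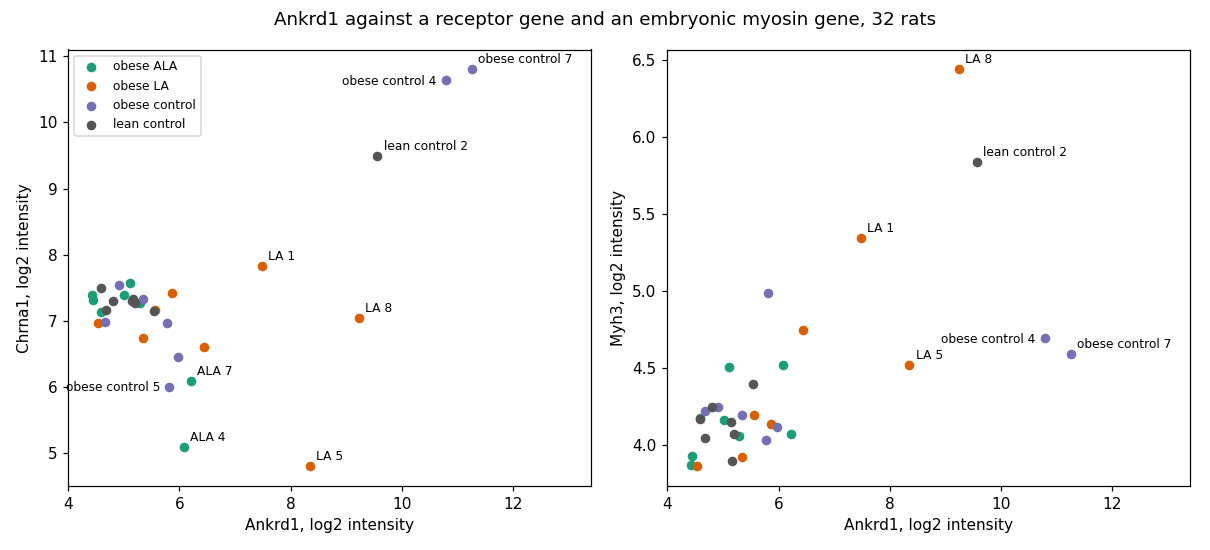
Log2 intensity of Ankrd1 in 32 rats (x axes) against Chrna1 (left) and Myh3 (right), with 1 point per rat coloured by group. Obese controls 4 and 7 and lean control 2 are high in Ankrd1 and Chrna1, LA rats 5 and 8 are high in Ankrd1 with Chrna1 at 4.80 and 7.04, and LA rat 8 and lean control 2 are the highest in Myh3.

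How far this pattern of rats extended was counted over all genes. Obese controls 4 and 7 were the 2 highest of their group in 5 of the 7 genes (Ankrd1, Chrna1, Chrng, Gadd45a and Myog), against 16.2% of all genes tested, and lean control 2 was the highest of its group in all 7, against 14.8%. A gap of over 1 log2 unit to the next obese control was seen in 4 of the 7 genes (Ankrd1, Chrna1, Gadd45a and Myog), against 0.714% of all genes, and a gap of that size below lean control 2 in 5 (these and Myh3), against 0.238%. With both gaps, 20 of 10917 genes were left (0.183%), and Ankrd1, Chrna1, Gadd45a and Myog were among them. Genes and rats were chosen with earlier results of these data known, so the counts describe the pattern and test nothing. From the lists of related genes, the same gaps were seen in Sln (sarcolipin, an inhibitor of the calcium pump) and Ampd3 (an AMP deaminase). They were also seen in Igfn1 (an immunoglobulin-like protein of muscle) and Mt2A (a metallothionein). Mt2A was dim, with a mean of 3.72 over all arrays against a limit of 3.35 for leaving genes out. Its group medians were 2.66 in lean controls, 3.38 in obese controls, 3.26 in obese ALA rats and 3.23 in obese LA rats. The high values of the 3 rats are part of the mean over all arrays and helped Mt2A pass the limit. Sln lay at 9.47 in obese control 7, 9.29 in obese control 4 and 8.79 in lean control 2, against group medians of 6.10 and 5.72 for obese and lean controls. LA rat 8 was higher still in Sln, at 10.02.

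Some markers of other cells moved in all 3 rats and others in a part of them. The mean over 7 endothelial markers was 6.47 in obese control 4 and 6.59 in obese control 7, against at least 6.78 in the other obese controls, and 6.90 in lean control 2, against 6.93 to 7.26 in the other lean controls. Of these 7 markers, 1, 2 and 0 lay above the group median in obese controls 4 and 7 and lean control 2. The mean over 11 macrophage markers was 6.06 in obese control 7 and 5.87 in obese control 4, against 5.16 to 5.50 in the other obese controls. It was 5.24 in lean control 2, within the 4.92 to 5.32 of its group. All 7 mature-muscle markers lay below the group median in obese controls 4 and 7 (median difference -0.11 log2 units in each). The shift was not even, as Actn3 lay furthest below, at -0.88 in obese control 4 and -0.83 in obese control 7. The mature-muscle mean of lean control 2 (12.22) was the lowest of its group too, as was that of LA rat 8 (12.20) of its own. The mean over 8 Schwann cell and nerve genes was 4.33 in obese controls 4 and 7 and 4.24 in lean control 2, against 4.12 to 4.29 in the other obese controls and at most 4.27 in the other lean controls. Tendon genes in obese control 4 (4.22) and lean control 2 (4.27) lay within the range of the rest of their groups. Obese control 7 (4.95) was the highest obese control, with 9 of 10 tendon genes above the group median, but within the range of all controls. At 6.24 in LA rat 8, 5.77 in ALA rat 7 and 5.32 in LA rat 5, tendon genes were above every obese control. The mean over 5 satellite-cell markers spanned 4.42 to 4.81 over all rats. The satellite-cell gene Pax7 was not analysed, as the annotation used gave it no feature. In whole muscle a smaller number of cells of a type and less RNA per cell cannot be told apart, and the part of these cells in the values was not tested.

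Obese controls were set against lean controls on the same diet to ask what differs with genotype. Myod1 was lower in obese controls, and the other 6 genes did not pass the test. Myod1 averaged 7.18 ± 0.36 in obese controls and 8.01 ± 0.34 in lean controls (SD, n = 8 each). The log2 difference was -0.83 (SE 0.20, 95% interval -1.24 to -0.43, limma adjusted p = 0.0206), which is 1.78-fold lower. The groups overlapped by 3 rats only, since obese controls 1 (7.55) and 7 (7.60) lay above lean control 5 (7.47). In this comparison 1.33% of all genes were called lower and 1.76% in either direction, against 1 of these 7. Myod1 was called in 14 alternative settings and in 16 fits that each left out 1 control rat, with a log2 difference from -0.93 to -0.75 and an adjusted p from 0.00274 to 0.0499. The slow-fibre markers moved beside it: 5 of 5 were called lower in obese controls, and their mean was 7.21 to 8.75 in obese and 9.78 to 10.37 in lean controls. Their part in the Myod1 difference was not tested.

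Among the other 6 genes, Chrna1 and Myog had a positive mean difference with all rats and a negative one without the 3 high rats, while Ankrd1 and Gadd45a kept a smaller positive one. Ankrd1 averaged 6.82 ± 2.64 in obese and 5.59 ± 1.64 in lean controls, a log2 difference of 1.23 (SE 0.82, adjusted p = 0.497), and the difference was -0.17 without obese controls 4 and 7 and 0.40 without all 3 rats. Chrna1 averaged 7.84 ± 1.84 in obese and 7.56 ± 0.79 in lean controls, a difference of 0.28 (adjusted p = 0.854), and was at -0.68 without obese controls 4 and 7 and -0.41 without all 3. Gadd45a had a difference of 0.58 (adjusted p = 0.444), with 0.17 without the 3 rats. Myog had 0.15 (adjusted p = 0.864) and -0.18 without them. Chrng (0.14) and Myh3 (0.0339) had adjusted p = 0.457 and 0.969. Without lean control 2 alone, Ankrd1 was at 1.80 and Gadd45a at 0.84 (adjusted p = 0.254 and 0.199). Over all genes 133 were called without the 3 rats and 192 with them.

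**Figure D4:**
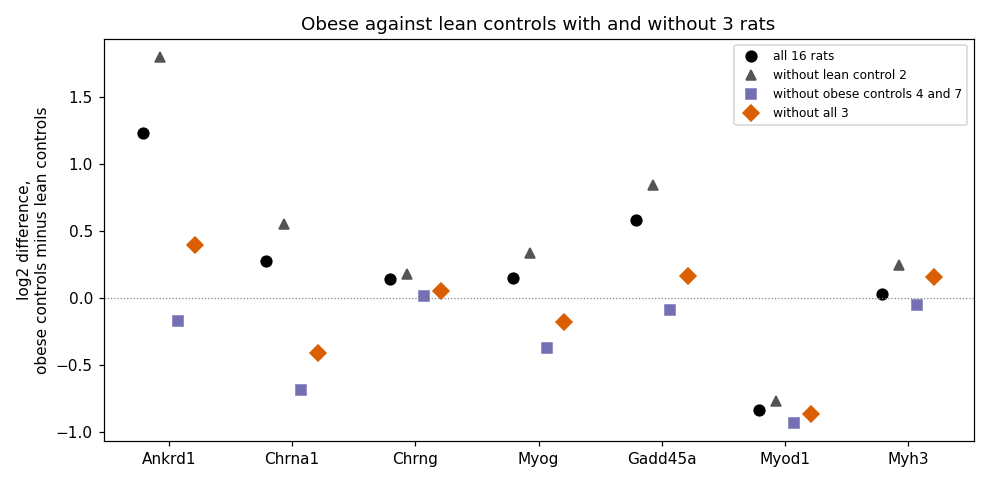
Log2 difference of obese minus lean controls for the 7 genes with all 16 control rats, without lean control 2, without obese controls 4 and 7, and without all 3 rats. Myod1 stays between -0.93 and -0.77, while Chrna1 and Myog are above 0 with all rats and below 0 without the 3.

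With flaxseed oil, limma called 0 of the 7 relative to obese controls, and likewise 0 of all 10917 genes (0% called, 8.41% at an unadjusted p below 0.05). Ankrd1 averaged 5.15 ± 0.69 in obese ALA rats and 6.82 ± 2.64 in obese controls (SD, n = 8 each), a log2 difference of -1.67 (95% interval -3.34 to -0.0019, adjusted p = 0.592). Chrna1 had a difference of -0.93 (adjusted p = 0.631), Gadd45a of -0.58 (0.643), Myog of -0.39 (0.712), Myh3 of -0.22 (0.828) and Chrng of -0.19 (0.565). At an unadjusted p below 0.05 the 2 genes Ankrd1 (0.0498) and Chrng (0.0358) were left. Without obese controls 4 and 7 the differences were -0.27 for Ankrd1, 0.0268 for Chrna1, 0.0915 for Gadd45a and 0.12 for Myog. Myod1 was at 7.33 ± 0.44 in obese ALA rats and 7.18 ± 0.36 in obese controls, and the 95% interval of its difference ran from -0.26 to 0.56.

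On the safflower oil diet none of the 7 genes, and none of all genes tested, was called by limma against obese controls (0% called, 6.25% at an unadjusted p below 0.05, which held for 0 of the 7). Ankrd1 averaged 6.60 ± 1.62 in obese LA rats and 6.82 ± 2.64 in obese controls, a difference of -0.22 (95% interval -1.88 to 1.45, adjusted p = 0.981). Without obese controls 4 and 7 it was 1.19 (adjusted p = 0.912), since LA rats 1, 5 and 8 were then the high ones. Chrna1 had a difference of -1.02 (adjusted p = 0.812) and was at -0.0607 without obese controls 4 and 7. Myh3 averaged 4.64 ± 0.87 in obese LA rats and 4.38 ± 0.33 in obese controls, a difference of 0.26 (adjusted p = 0.902), and of -0.21 without LA rats 1, 5 and 8. The interval for Myod1 ran from -0.42 to 0.39. Both diet comparisons use the same obese controls, so their values are not independent.

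Flaxseed and safflower oil, whose main fatty acids differ by a double bond, were compared within obese rats. None of the 7 genes was called (0% of all genes called by limma, 6.94% at an unadjusted p below 0.05, 0 of the 7). Ankrd1 averaged 5.15 ± 0.69 in obese ALA rats and 6.60 ± 1.62 in obese LA rats, a log2 difference of -1.45 (95% interval -3.12 to 0.21, adjusted p = 0.735), and of -0.40 without LA rats 1, 5 and 8. Myh3 had a difference of -0.48 (95% interval -1.02 to 0.0542, adjusted p = 0.734), with the high values in LA rats 8 and 1. The intervals of Chrna1 (-1.02 to 1.19), Gadd45a (-0.84 to 0.59) and Myod1 (-0.24 to 0.57) held both signs.

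**Figure D5:**
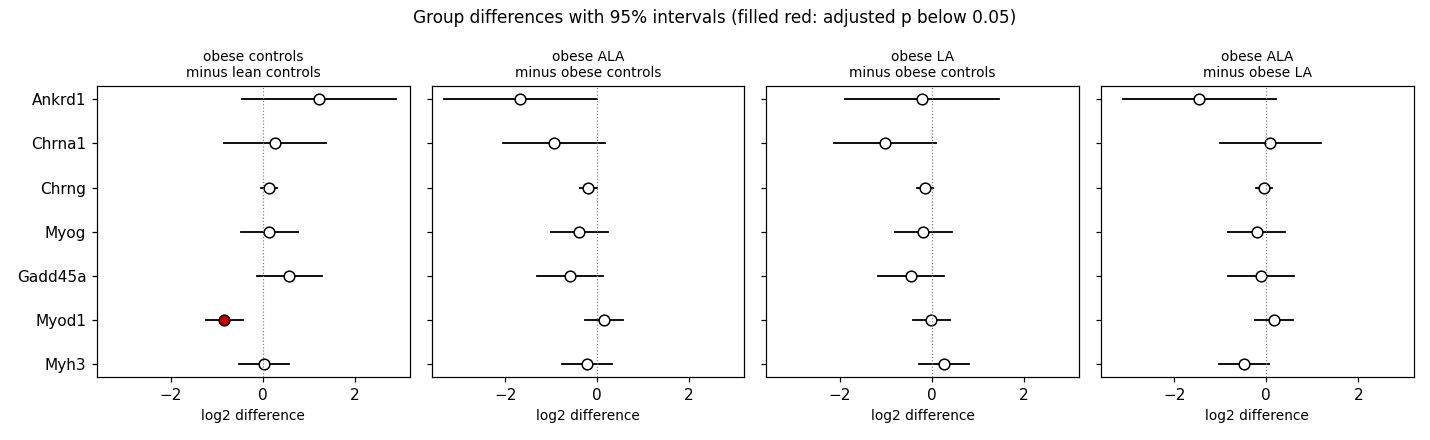
Log2 differences of the 7 genes in the 4 comparisons, with 95% intervals from the limma fit; a filled red point marks an adjusted p below 0.05. Only Myod1 in obese minus lean controls, at -0.83, is filled, and the Ankrd1 intervals are the widest.

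Other genes of the same processes were read from lists of stretch, denervation, regeneration and Gadd45 stress genes. In the 4 comparisons limma called 0 of 14 stretch, 0 of 13 denervation, 0 of 14 regeneration and 0 of 7 stress genes tested. In the comparison of obese with lean controls, 1, 0, 2 and 1 of them had an unadjusted p below 0.05, against 14.8% of all genes. Their median log2 differences were 0.0296, 0.13, 0.0674 and 0.21, against 0.0019 over all genes. For obese ALA rats against obese controls the medians were -0.34, -0.15, -0.10 and -0.0248, against -0.0055 over all genes. There 4, 1, 2 and 1 genes had an unadjusted p below 0.05, against 8.41% of all genes. For obese LA rats against obese controls the medians were -0.0387, -0.0265, -0.0409 and -0.0068, against -0.0022 over all genes, with 0, 2, 2 and 0 such genes (6.25% of all genes). For flaxseed against safflower oil they were -0.17, 0.0159, -0.0523 and -0.0778, against -0.0009 over all genes, with 2, 1, 3 and 0 such genes (6.94% of all genes).

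Among the stretch genes, Csrp3 (muscle LIM protein of the Z-disc) averaged 9.03 ± 0.62 in obese ALA rats and 10.09 ± 1.06 in obese controls, a difference of -1.06 (adjusted p = 0.506). Obese controls 7 (11.58) and 4 (11.34) were the 2 highest of their group, and lean control 2 (10.67) and LA rat 8 (11.64) the highest of theirs. Ankrd2, a slow-fibre relative of Ankrd1, had a difference of -0.88 between obese and lean controls (adjusted p = 0.43) and reached 11.47 in LA rat 8, 10.90 in obese control 7, 10.20 in lean control 2 and 10.14 in obese control 4. In LA rat 8, 13 of 14 stretch genes lay above the group median and 7 by over 1 log2 unit, against 4 in obese control 7, 2 in obese control 4 and 1 in lean control 2. Slow-fibre markers were also high in LA rat 8, with all 5 above the group median and a mean of 10.95, the highest of all 32 rats, against 7.18 to 9.28 in LA rats 1 to 6 and 10.38 in LA rat 7. Their part in its stretch gene values was not tested.

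In the denervation list, 12 of 13 genes in obese control 4, 10 in obese control 7 and 11 in lean control 2 lay above the group median, against 9 in LA rat 8. Chrnb1, the beta subunit of the acetylcholine receptor, lay at 8.23 in obese control 7, 7.98 in obese control 4 and 7.53 in lean control 2, or 1.43, 1.19 and 0.69 above the group medians. Its difference between obese LA rats and obese controls was -0.43 (adjusted p = 0.79). Ampd3 lay 3.36, 2.67 and 1.74 above the group median in obese controls 7 and 4 and lean control 2, and 2.29 above it in LA rat 8. Over the 17 regeneration genes with a feature, the mean was 6.04 in obese control 7, 5.88 in obese control 4 and 5.93 in lean control 2, the 3 highest of all 32 rats, with 15, 13 and 11 genes above the group median. Only 2, 2 and 1 of these genes lay over 1 log2 unit above it, and the median differences were 0.31, 0.11 and 0.28. A few genes thus carried much of the rise in the mean. In LA rat 8 the mean was 5.58, with 9 genes above the group median. The list included Igfn1, which lay 2.53 above the group median in lean control 2 and 2.03 and 1.21 in obese controls 7 and 4, but not in LA rat 8 (-0.22). ALA rat 3, at 5.78, was above obese control 4 (5.45) in Igfn1. Of the 7 stress genes, 4 in obese control 7, 2 in obese control 4 and 4 in lean control 2 lay above the group median. Gadd45b lay below it in these 3 rats (-0.24, -0.04 and -0.29 log2 units). Atf3, a stress-induced transcription factor, was at 9.58 in LA rat 8, against at most 6.74 in any lean or obese control.

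Genes whose values over the 32 rats were most like those of each role were ranked among 10842 genes by Pearson correlation of values centred on the group means. This is a description, since the 3 high rats weigh heavily in it. For Ankrd1 they were Tspan13 (r = 0.913), Klf5, a zinc-finger transcription factor (0.895), Eda2r, a receptor of the tumour necrosis factor family (0.889), Prrg4 (0.887) and Hspb8, a small heat shock protein (0.881). Over the 29 rats without the 3, Klf5 (0.686) and Tspan13 (0.669) ranked 5 and 11, and Eda2r, Prrg4 and Hspb8 were at 0.495, 0.478 and 0.563. For the mean of Chrna1, Chrng, Myog and Gadd45a they were Prrg4 (0.919), Copz2, a coatomer subunit (0.917), Pkig, an inhibitor of protein kinase A (0.917), Slain2 (0.906) and Rnf217 (0.905). Without the 3 rats Pkig was at 0.589 and ranked 73, and the other 4 were at 0.13 to 0.355 and ranked from 854 to 3267. For the mean of Myod1 and Myh3 the likeness was weaker and moved less, with Lipg, endothelial lipase, at 0.673 over 32 and 0.574 over 29 rats, Pax3, a factor of muscle progenitors, at 0.67 and 0.627, Pak6 at 0.64 and 0.574, Gabbr1 at 0.638 and 0.535, and Krt27 at 0.635 and 0.556.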

How the data were processed

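RNA of the red tibialis anterior was labelled from 100 ng with the Affymetrix GeneAtlas WT Plus protocol, per the labels' protocols. Per the submitters' processing notes the authors used RMA, and the deposited numbers are on a log2 scale. RMA as a method corrects background and quantile-normalises, which takes out shifts common to most genes and compresses dim features. The RMA version and genome build are not given in the sources used here. Arrays carry no read depth, and their number limits the precision.

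The table held 36685 features, of which 14824 had 1 gene symbol, 829 several and 21032 none in the annotation. The feature with the highest mean stood for a gene, and genes with a mean at or below 3.35 were left out. A mean per group was fitted with limma 3.58.1 in R 4.3.3 over all 32 arrays (28 residual degrees of freedom). P values are two-sided and Benjamini-Hochberg adjusted over 10917 genes within each comparison, with calls below 0.05. The steps were tested on simulated data.

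The genes, the lists and the 3 rats left out were chosen with earlier results of these data known. All 7 genes are named, as are up to 4 called genes of each list or else the 2 with the largest difference, of which the text gives a part, and the 5 most alike genes for each role. Genes with provisional names (LOC, RGD and similar) were not ranked for likeness. The hepatocyte list and the fits without LA rats 7 and 8 or 1, 5 and 8 were added after the data were seen. Promoter windows come from RefSeq's GRCr8 table. Tables were made with Python 3.11.15 and pandas 2.3.3, and figures with matplotlib 3.10.9.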

Additional observations from a re-analysis of the deposited data

Results flagged for a closer look

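In 8 of 28 combinations of 7 genes and 4 groups, 1 rat stood apart from the other 7 of its group, with a gap to the nearest rat that took over 0.526 of the group's range. Chance flags about 1 in 20 such groups, but the genes share their rats and were chosen with lean control 2 already known to run high, so the number found is a description and supports nothing. Lean control 2 stood apart in 5 genes: Ankrd1 (9.56, next 5.53), Chrna1 (9.50, next 7.49), Gadd45a (8.17, next 6.28), Myog (7.39, next 6.16) and Myh3 (5.83, next 4.39). Among obese LA rats, rat 8 stood apart in Myog (7.44, next 5.98), rat 1 in Chrng (4.29, next 3.94) and rat 5 in Chrna1 as the lowest (4.80, next 6.60). Neither obese control 4 nor obese control 7 was found in this way. In Ankrd1, Chrna1, Chrng, Gadd45a and Myog they were the 2 highest of their group, and this measure finds 1 rat apart from all others.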

How the results depend on the processing

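The number of the 7 genes called was 1 for obese against lean controls and 0 for the other 3 comparisons in every alternative, including each array left out in turn, the replicate block and a limit of 0.1. Deviations of rats with the same number from their group means correlated at -0.23 to 0.30. In the 4 comparisons 3, 5, 1 and 2 of 8 rats were closest to their own number. Whether the numbers pair rats across groups cannot be told from these values. With the replicate block Myod1 had an adjusted p of 0.028, and the block changed no call among the 7 genes. Over all genes limma called 192 for obese against lean controls, 245 with the replicate block, 316 with array weights and 354 at an adjusted p below 0.1. Of the 192, 24.5% were higher, and 35.6% of 191 were after a second quantile normalisation. Without a filter, or with every feature tested, 1 gene each was called for obese LA rats against obese controls and for flaxseed against safflower oil, and it was none of the 7. With the dimmest 50% left out, Chrng and Myh3 were not tested.

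Differences that turned sign were all of genes that did not pass the test. Without obese controls 4 and 7, obese minus lean controls was -0.17 for Ankrd1, -0.68 for Chrna1, -0.0897 for Gadd45a, -0.0514 for Myh3 and -0.37 for Myog, obese ALA minus obese controls was 0.0268 for Chrna1, 0.0915 for Gadd45a and 0.12 for Myog, and obese LA minus obese controls was 1.19 for Ankrd1, 0.21 for Gadd45a, 0.0894 for Myod1 and 0.33 for Myog. Without lean control 2 as well, obese minus lean controls was -0.41 for Chrna1 and -0.18 for Myog. With array weights it was -0.17 for Chrna1, -0.0088 for Myh3 and -0.13 for Myog, and obese LA minus obese controls was 0.30 for Ankrd1, 0.12 for Myod1 and 0.0397 for Myog. Without LA rats 7 and 8, obese LA minus obese controls was -0.0556 for Myh3 and 0.14 for Myod1, and flaxseed minus safflower oil was 0.0176 for Myog. Without LA rats 1, 5 and 8, these were -0.21 for Myh3, -0.069 for Chrna1 and 0.0005 for Myog. With each array left out in turn, obese minus lean controls ran from -0.15 to 0.55 for Chrna1, -0.0517 to 0.25 for Myh3 and -0.10 to 0.34 for Myog. Likewise obese LA minus obese controls ran from -0.59 to 0.42 for Ankrd1, -0.18 to 0.0905 for Myod1 and -0.38 to 0.0684 for Myog, and flaxseed minus safflower oil from -0.20 to 0.35 for Chrna1 and -0.0812 to 0.006 for Chrng. Apart from the rats left out, the cause was not tested.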
